A study of Homo sapiens with 8 samples.

Results

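The entries described here are 98 abundant RNAs of arsenite-treated U2OS cells whose ribosome footprints were listed at under 1% of their input level. They were chosen on the cells with an empty vector: an entry had to average at least 10 TPM over both vector inputs, and its mean over both vector footprint libraries had to lie below 0.01 of that. TPM is a share of a library, corrected for transcript length and summing to 1000000 per library. Of 26902 entries in the table, 783 reached the input minimum. Spike-ins, small RNAs, histone, ribosomal protein and snoRNA host genes and a few well-known non-coding RNAs were left out by name. That left 639, and the 98 members are 15.3% of them. The names left out held 61 further entries past both thresholds. Because the vector libraries chose the members, their low vector footprints are a description and not a finding.

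Ribosome profiling sequences the short RNA fragments that ribosomes shield from nuclease, beside the total RNA of the same cells, called the input. Arsenite causes oxidative stress, which leads to phosphorylation of the initiation factor eIF2 alpha, lowers translation and gathers untranslated mRNA in stress granules. RNAs that stay in the nucleus, non-coding RNAs and mRNAs that wait untranslated can all be plentiful in total RNA and poor in footprints. QKI7 is an isoform of QKI, a STAR-family protein that binds RNA and acts in splicing, stability and translation.

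U2OS is an established human osteosarcoma line. The 4 groups, of 2 libraries each, were footprints and inputs of cells overexpressing QKI7 and footprints and inputs of cells with the vector. All 4 had 0.5 mM sodium arsenite for 1 h, so nothing here compares stressed with unstressed cells. Footprints were fragments of 17 to 34 nt, and the inputs were total RNA depleted of rRNA. Nothing in the labels ties the 2 libraries of a group to separate cultures, so the p-values reflect the spread between libraries alone, which may be technical. The label that these RNAs are free of footprints depends on the scale, as the shares below show.

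QKI itself, the overexpressed gene, was listed at 1748.86 and 1579.91 TPM in QKI7 inputs and 3.01 and 3.45 TPM in vector inputs. Of the listed mesenchymal markers, VIM averaged 78.8 TPM in QKI7 inputs and 100.4 TPM in vector inputs. COL1A1 averaged 23.9 and 18.2 TPM in the same order, SPARC 15.2 and 12.9, CD44 6.83 and 8.94, and THY1 1.9 and 1.56. RUNX2 was low, at 0.61 and 0.29 TPM. Of markers of other cell types, CDH1, PTPRC, CD3E and GFAP were at or near 0 in all 8 libraries. EPCAM, ALB and HBB were under 1 TPM in all 8, with HBB averaging 0.37 TPM in vector inputs. Entries outside spike-ins, histones and small RNAs, most of them mRNAs, took 0.690% to 0.707% of the 4 footprint libraries and 4.02% to 4.93% of the 4 inputs. That share was 5.91-fold lower in vector footprints than in vector inputs, so footprint-to-input ratios are low for most entries as deposited. With these entries rescaled to equal sums, the members' median ratio was 6.02% in QKI7 cells and 3.79% in vector cells, and 4 members stayed below 1% in vector cells. On that scale, the rule takes 483 entries, and 4 of them are members. Inputs are larger numbers there, so the minimum of 10 TPM is looser and takes in entries of lower input. The members are therefore called by the rule, and not free of footprints.

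A set of 11 members comes from families of recently duplicated genes. Reads may fit several copies, and how the authors' quantification placed such reads is not given, so the level of each copy is uncertain. The POTE genes show how alike the sequence before the start can be, while transcript sequences were not compared. The 100 bases before the annotated start of POTEM (chr14:18967334-18967433, plus strand), POTEG (chr14:19434342-19434441, minus strand) and POTEH (chr22:15689926-15690025, plus strand), from RefSeq on GRCh38.p14, are shown 5′ to 3′, with the base at which POTEH differs from POTEM in a capital.
POTEM: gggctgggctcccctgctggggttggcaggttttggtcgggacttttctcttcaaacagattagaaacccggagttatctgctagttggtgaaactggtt
POTEG: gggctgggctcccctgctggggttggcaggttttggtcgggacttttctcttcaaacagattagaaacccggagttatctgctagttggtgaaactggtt
POTEH: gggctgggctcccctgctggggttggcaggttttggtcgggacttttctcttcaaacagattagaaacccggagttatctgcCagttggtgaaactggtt

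CBS, the enzyme that joins homocysteine and serine to cystathionine, also has a promoter copy at another locus. It is the only member listed at 0 in all 4 footprint libraries. A stretch of its promoter window (chr21:43076432-43076531, minus strand, ending 54 bases before the annotated start) matches the stretch before the start of LOC102724560 (chr21:6468110-6468209, minus strand) in all 100 bases, both from RefSeq on GRCh38.p14. They are shown with no capitals because no base differs.
CBS: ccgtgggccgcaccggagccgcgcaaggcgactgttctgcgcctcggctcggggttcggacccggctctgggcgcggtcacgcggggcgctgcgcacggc
LOC102724560: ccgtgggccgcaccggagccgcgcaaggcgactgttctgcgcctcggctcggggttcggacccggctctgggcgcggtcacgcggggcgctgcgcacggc

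CBS inputs were 14.73 and 11.91 TPM in QKI7 cells, against 13.32 and 14.2 TPM in vector cells. The table also has an entry CBSL, a name that RefSeq gives as a synonym at both loci. CBSL was listed at 0.3 and 0.27 TPM in QKI7 footprints and 0.17 and 0.2 TPM in vector footprints, with 1.65 and 3.76 TPM in QKI7 inputs and 2.69 and 3.52 TPM in vector inputs. The 0 of CBS thus stands beside an entry of a shared name that holds footprints, and which locus the reads came from was not tested.

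Near copies of the promoter window, the 300 bases from 250 before to 50 after a start, were counted where another gene's window matched at 90% identity or more over at least 150 bases. Of the 70 members with a window in the RefSeq table, 9 had such a copy (12.9%), against 6 of 419 other abundant entries (1.43%). The 9 are all 8 duplicated-family members with a window, and CBS. POTEM and POTEG matched over all 300 bases.

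By class in RefSeq, 94 members matched by symbol and 2 by an older symbol (FAM21C, now WASHC2C, and MLLT4, now AFDN). The classes were 84 protein-coding genes, 10 transcribed pseudogenes and 2 long non-coding RNAs. CDR1 and LOC642423 had no match and are given by their entry names, with no class. Transcribed pseudogenes made up 10.4% of the matched members, against 1.87% of the other abundant entries. The members also lie in longer genes: the median gene span was 54931.5 bp, against 24849 bp for the others, and 30 of 96 members (31.2%) span over 100 kb, against 55 of 535 (10.3%). In RefSeq, 16 members overlap a protein-coding gene or locus, among them NME2 (NME1-NME2), ZBED6 (ZC3H11A) and DNAJB1 (TECR). The overlap was counted on gene spans, introns included, without regard to strand or exons, and no share is given for the other abundant entries. The strand setting of the quantification is not stated, and whether reads of the overlapping genes entered these levels was not tested.

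**Figure D1:**
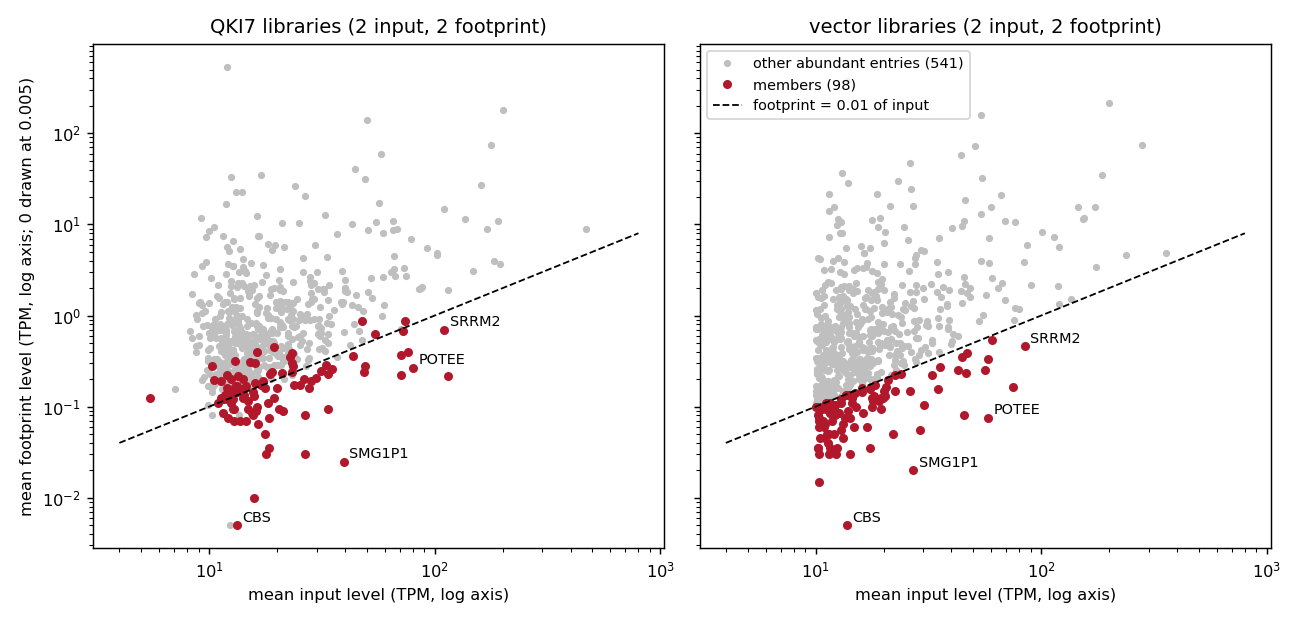
Mean footprint level against mean input level (TPM, both log axes) in QKI7 libraries on the left and vector libraries on the right, 1 point per entry, with 0 drawn at 0.005. The 98 members (red) all lie under the dashed line of 0.01 in vector libraries, where they were chosen, and 57 of them lie under it in QKI7 libraries, where the 541 other abundant entries (grey) have a median ratio of 3.71%.

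The same rule can be read in the QKI7 libraries, which had no part in the choice. There, 57 of the 98 members had a mean footprint below 1% of the mean input, and 92 were below 2%. Of the 771 entries with at least 10 TPM in QKI7 inputs outside the names left out, 115 were below 1%, which is 14.9%. In all, 50 members were below 1% in both numbered QKI7 pairs. No share of all entries in QKI7 libraries is given for the 2% cut or for both pairs. In vector libraries, the rule with a cut at 2% took 244 entries. The median ratio of the members was 0.877% in QKI7 cells and 0.642% in vector cells, and that of the other 541 abundant entries was 3.71% in QKI7 cells and 3.46% in vector cells. Translated housekeeping mRNAs on a fixed list (24 at 10 TPM or more in vector inputs, among them ACTB and GAPDH) had a median of 23.5% in QKI7 cells and 26.4% in vector cells. They ran from 2.19% to 282% in QKI7 cells and from 1.80% to 295% in vector cells. The lowest were NCL in QKI7 cells and FTH1 in vector cells. NCL thus lay within the members' range in QKI7 cells, which reached 2.72%.

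The cut at 1% falls in a continuous range. Just inside it, in vector cells, were NF2 (merlin, the membrane-linked tumour suppressor upstream of the Hippo kinases) at 0.977%, ODF2 (a centriole appendage protein) at 0.987%, KIF4A (a chromosome-bound kinesin) at 0.993%, HELZ2 (a nuclear receptor coactivator with helicase domains) at 0.994% and ZNF598 (the ubiquitin ligase that marks collided ribosomes) at 0.999%. Just outside were KMT2B at 1.00%, FBXL19 at 1.01%, TRIO and DDX11 at 1.02% and SHTN1 at 1.03%.

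To describe the members, they were put into 7 groups by known function or gene class, after their values had been seen. The largest is a set of 24 genes of the cytoskeleton, Golgi and centrosome, followed by 23 of chromatin and transcription and 17 of RNA processing and decay. Then come the 11 members of duplicated families, 10 transcribed pseudogenes, 8 other protein-coding genes and 5 long non-coding or unmatched RNAs.

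**Figure D2:**
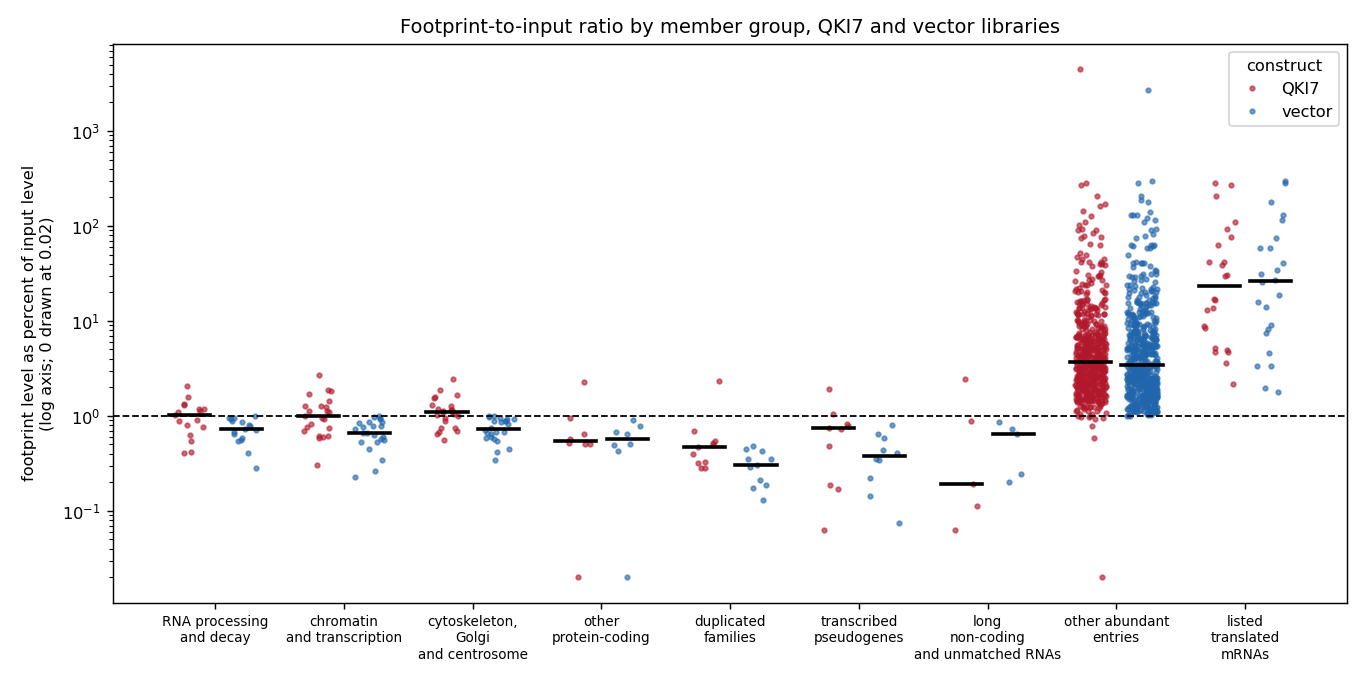
Footprint level as a percent of input level (log axis, 0 drawn at 0.02) for every member by group, the 541 other abundant entries and 24 listed translated mRNAs, in QKI7 cells (red) and vector cells (blue); black bars are medians and the dashed line is 1%. Duplicated families have medians of 0.465% in QKI7 cells and 0.302% in vector cells, against 3.71% and 3.46% for the other abundant entries. Long non-coding and unmatched RNAs have 0.190% in QKI7 cells and 0.642% in vector cells.

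Among genes of RNA processing and decay, SRRM2 (chr16:2752638-2771412), a scaffold protein of nuclear speckles and the spliceosome, had the highest vector input of any member. Its footprints were 0.69 and 0.7 TPM in QKI7 cells and 0.44 and 0.48 TPM in vector cells, with inputs of 114.69 and 106.14 TPM in QKI7 cells and 80.88 and 87.87 TPM in vector cells. Both QKI7 libraries were above both vector libraries in either library type. LUC7L3 (chr17:50719603-50756219), a U1 snRNP-associated splicing factor, had footprints of 0.86 and 0.88 TPM in QKI7 cells and 0.53 and 0.54 TPM in vector cells. Its inputs were 75.15 and 72.87 TPM in QKI7 cells and 57.19 and 64.27 TPM in vector cells, again without overlap. SLTM, an RNA-binding modulator of transcription, was level between constructs in the inputs, at 33.83 and 32.23 TPM in QKI7 cells and 31.31 and 34.38 TPM in vector cells.

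Nonsense-mediated decay, which degrades mRNAs with premature stop codons, gave 3 members of this group. SMG1, the kinase that phosphorylates UPF1, had footprints of 0.09 and 0.06 TPM in QKI7 cells and 0.05 and 0.02 TPM in vector cells, and inputs of 19.39 and 17.34 TPM in QKI7 cells and 11.93 and 13.05 TPM in vector cells. SMG5, an adaptor that binds phosphorylated UPF1, had 0.902% of its input in footprints of QKI7 cells and 0.649% in vector cells. UPF3A, a paralog of the UPF factor that bridges to exon junctions, had 0.756% in QKI7 cells and 0.8% in vector cells. The other members of this group were RBM6, RBM15 (an adaptor of the m6A writer), RBM19, PRRC2B, ZNF598, NKTR, CCNL2, PCF11 (a factor of 3′ end formation), SFSWAP, GIGYF1 and MCM3AP (an mRNA export scaffold). Over all 17, ratios ran from 0.408% to 2.04% in QKI7 cells and from 0.280% to 0.999% in vector cells.

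Chromatin and transcription gave 3 of the 20 most abundant members. ATN1 (chr12:6924459-6942321), the corepressor atrophin-1, had footprints of 0.7 and 0.67 TPM in QKI7 cells and 0.39 and 0.27 TPM in vector cells, with inputs of 75.08 and 69.09 TPM in QKI7 cells and 56.08 and 60.12 TPM in vector cells. TNRC18, a chromatin-binding protein, had 0.86 TPM in each QKI7 footprint library and 0.35 TPM in each vector one. Its inputs were 48.23 and 46.64 TPM in QKI7 cells and 44.3 and 44.74 TPM in vector cells, so its ratio was 1.81% in QKI7 cells and 0.786% in vector cells. ANKRD11, a large chromatin regulator, had inputs that overlapped, at 35.04 and 31.95 TPM in QKI7 cells and 32.78 and 36.71 TPM in vector cells. ZNF496, a zinc finger protein, had 1.88% of its input in footprints in QKI7 cells and 0.863% in vector cells.

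The rest of this group included bromodomain proteins (BRD7, BRD9, BPTF, BAZ1B), ATP-dependent remodellers and their partners (SMARCA4, SMARCC2, SRCAP, CHD2), the methyltransferase KMT2D, SETD5, ARID4B, the RNA polymerase III factor BDP1, the TFIID subunit TAF3, the nucleolar protein TCOF1, DIDO1, URI1, ZBED6 and HELZ2. HELZ2 had the highest ratio of any member in QKI7 cells, 2.72%, and 0.994% in vector cells. The lowest of the group was BDP1, at 0.300% in QKI7 cells and 0.226% in vector cells.

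The group of cytoskeleton, Golgi and centrosome genes includes motors, coiled-coil proteins and adaptors. KTN1 (kinectin, a kinesin-binding protein of the endoplasmic reticulum, chr14:55580207-55684584) had footprints of 0.63 and 0.61 TPM in QKI7 cells and 0.33 and 0.44 TPM in vector cells, with inputs of 57 and 51.55 TPM in QKI7 cells and 44.62 and 48.95 TPM in vector cells. DST (dystonin, a linker between cytoskeletal filaments, chr6:56457996-56954830) has the longest gene span of the members, 496835 bp. Its footprints were 0.28 and 0.24 TPM in QKI7 cells and 0.24 and 0.22 TPM in vector cells, and touch, while its inputs were 37.1 and 32.85 TPM in QKI7 cells and 22.96 and 25.1 TPM in vector cells.

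GOLGA4, a golgin that tethers vesicles at the trans-Golgi, had 0.673% of its input in footprints in QKI7 cells and 0.570% in vector cells. MAP7D1, a microtubule-binding protein, had one of the highest ratios in QKI7 cells, 2.44%, against 0.89% in vector cells. AP3D1, a subunit of the AP-3 adaptor, had 1.87% in QKI7 cells and 0.682% in vector cells. The other members of the group were the kinesins KIF5B, KIF1C and KIF4A, the centrosome proteins PCNT, NIN, ODF2, CEP170B and CCDC57, the Golgi protein GOLGB1, and NF2, PPP1R12C, MYO18B, DLG5, MAP1B, MPRIP, CDC42BPB, FAM21C, ASAP1 and MLLT4. Ratios of all 24 ran from 0.557% to 2.44% in QKI7 cells and from 0.341% to 0.993% in vector cells.

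**Figure D3:**
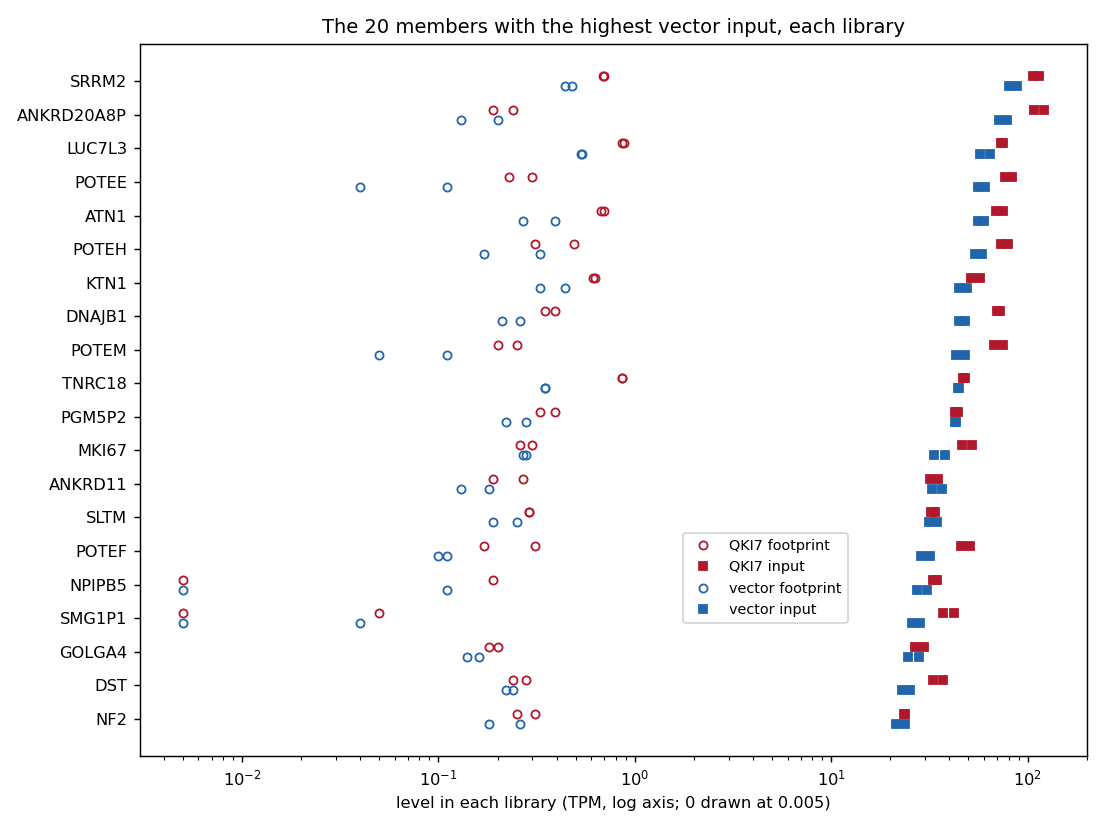
Levels (TPM, log axis, 0 drawn at 0.005) in each of the 8 libraries for the 20 members with the highest vector input; open circles are footprints, filled squares inputs, red QKI7 and blue vector. Inputs and footprints of a member never overlap, and the footprints of NPIPB5 and SMG1P1 are listed at 0 in 1 library of each construct.

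Duplicated families had the lowest median vector ratio of the 7 groups, 0.302%, on the value that chose the members. In QKI7 cells their median was 0.465%, and that of the 5 long non-coding or unmatched RNAs was lower, at 0.190%. POTE proteins carry ankyrin repeats and belong to a primate-specific family, and POTEE and POTEF end in an actin-like domain. POTEE (chr2:131209536-131265278) had footprints of 0.3 and 0.23 TPM in QKI7 cells and 0.11 and 0.04 TPM in vector cells, with inputs of 83.68 and 76.71 TPM in QKI7 cells and 55.88 and 60.64 TPM in vector cells. POTEM had footprints of 0.25 and 0.2 TPM in QKI7 cells and 0.11 and 0.05 TPM in vector cells, with inputs of 74.68 and 67.72 TPM in QKI7 cells and 43.29 and 47.78 TPM in vector cells. Neither library type overlapped between constructs for POTEE or POTEM.

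POTEH footprints overlapped, at 0.31 and 0.49 TPM in QKI7 cells and 0.17 and 0.33 TPM in vector cells. Its inputs did not, at 79.68 and 73.29 TPM in QKI7 cells and 53.75 and 58.84 TPM in vector cells. POTEG, whose promoter letters are those of POTEM, had a lower input (19.95 and 18.73 TPM in QKI7 cells, 15.82 and 18.01 TPM in vector cells) and higher QKI7 footprints (0.47 and 0.44 TPM in QKI7 cells, 0 and 0.12 TPM in vector cells). Its ratio of 2.35% in QKI7 cells was far above that of POTEM, 0.316%. Whether reads that fit both loci account for any of that gap was not tested. The family members POTEI and POTEJ, too low in input to be members, were listed at 0 in all 4 footprint libraries.

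POTEF, ANKRD36, ANKRD36C, NPIPB3, NPIPB5, NBPF8 and BAGE5 made up the rest of this group. NPIPB5 and BAGE5 were listed at 0 in the first footprint library of each construct and at 0.07 to 0.19 TPM in the second, so their ratios rest on 1 library of each construct. Over all 11 members, ratios ran from 0.282% to 2.35% in QKI7 cells and from 0.129% to 0.487% in vector cells.

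The set also holds 10 members that are transcribed pseudogenes, copies of genes that RefSeq holds to make RNA but no intact protein. ANKRD20A8P (chr2:94760928-94857075) was the second most abundant member by vector input. Its footprints were 0.19 and 0.24 TPM in QKI7 cells and 0.13 and 0.2 TPM in vector cells, with inputs of 121.77 and 107.26 TPM in QKI7 cells and 71.52 and 78.8 TPM in vector cells. SMG1P1, a pseudogene of the kinase gene SMG1, had 0.05 and 0 TPM in QKI7 footprints and 0 and 0.04 TPM in vector footprints. Its inputs were 42.3 and 36.95 TPM in QKI7 cells and 25.89 and 28.29 TPM in vector cells, so its ratio was 0.0631% in QKI7 cells and 0.0738% in vector cells. Its relative SMG1P3, not a member, had 1.85% in QKI7 cells and 1.10% in vector cells.

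PGM5P2 inputs were level between constructs, at 44.39 and 42.63 TPM in QKI7 cells and 42.49 and 43.1 TPM in vector cells. SDHAP1, a pseudogene of a succinate dehydrogenase subunit, had the highest QKI7 ratio of the pseudogenes, 1.90%, against 0.438% in vector cells, and its QKI7 footprints were spread at 0.42 and 0.19 TPM. GUSBP2, CCDC144NL, LOC650226, LOC652276, HERC2P9 and WASH7P complete the set.

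TUG1, a long RNA known for regulatory roles and classed as protein-coding in the RefSeq table used here, was the member among the listed long non-coding RNAs. Its footprints were 0.12 and 0.13 TPM in QKI7 cells and 0.06 and 0.09 TPM in vector cells, with inputs of 14.41 and 13.77 TPM in QKI7 cells and 9.81 and 10.92 TPM in vector cells. Of the 40 RNAs on that list, 37 were in the table and 4 had at least 10 TPM in both constructs' inputs. The nuclear RNAs MALAT1 and NEAT1, left out by name, had ratios of 0.356% and 0.721% in QKI7 cells and 0.262% and 0.471% in vector cells. TUG1 had 0.887% in QKI7 cells and 0.724% in vector cells. PSMA3-AS1, outside the rule, had 0.969% in QKI7 cells and 1.22% in vector cells. The members' ratios thus overlapped those of these RNAs.

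Small polymerase III and related RNAs, also left out by name for the most part, were spread widely. RN7SK, which binds the elongation factor P-TEFb, had 1.29% in QKI7 cells and 0.701% in vector cells, and RPPH1, the RNA of RNase P, had 1.43% in QKI7 cells and 1.21% in vector cells. RN7SL2, a 7SL RNA, lay lower, at 0.101% in QKI7 cells and 0.104% in vector cells. RNU12, an RNA of the minor spliceosome, had 299% in QKI7 cells and 301% in vector cells. Spike-ins, which are synthetic RNAs, summed to 0.00847% of their input in QKI7 footprints and 0.00795% in vector footprints. KCNQ1OT1 was under 1 TPM in every library and RMRP had 11.0% in QKI7 cells and 8.78% in vector cells.

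LINC00342 (chr2:95807052-95826981) had footprints of 0.01 and 0.06 TPM in QKI7 cells and 0.03 TPM in each vector library, with inputs of 18.95 and 17.98 TPM in QKI7 cells and 11.64 and 12.91 TPM in vector cells. LOC100288162 had the second highest ratio of all members in QKI7 cells, 2.46%, against 0.856% in vector cells. The unmatched entries were CDR1, with 0 and 0.02 TPM in QKI7 footprints and 0.02 and 0.05 TPM in vector footprints, and LOC642423, with 0.06 and 0 TPM in QKI7 footprints and 0.13 and 0.12 TPM in vector footprints. Inputs of CDR1 were 16.86 and 14.8 TPM in QKI7 cells and 17.02 and 17.73 TPM in vector cells.

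The other protein-coding members were DNAJB1, MKI67, USP36, CBS, FAM133B, NME2, KIAA1671 and RNF213. DNAJB1 (chr19:14514769-14560391), the heat-inducible HSP40 partner of HSP70, had footprints of 0.39 and 0.35 TPM in QKI7 cells and 0.21 and 0.26 TPM in vector cells. Its inputs were 72.45 and 69.97 TPM in QKI7 cells and 44.59 and 47.94 TPM in vector cells, with no overlap in either library type. MKI67, the proliferation marker Ki-67, which coats mitotic chromosomes, had overlapping footprints of 0.26 and 0.3 TPM in QKI7 cells and 0.27 and 0.28 TPM in vector cells. Its inputs were 52.04 and 46.47 TPM in QKI7 cells and 33.28 and 37.83 TPM in vector cells.

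NME2, a nucleoside diphosphate kinase, shares its locus with the NME1-NME2 readthrough entry. Its footprints were 0.09 and 0.16 TPM in QKI7 cells and 0.14 and 0 TPM in vector cells, and its inputs 5.73 and 5.15 TPM in QKI7 cells and 9.08 and 12.54 TPM in vector cells. The readthrough entry had 2.92 and 3.58 TPM in QKI7 footprints and 6.98 and 8.1 TPM in vector footprints, at a ratio of 59.7% in QKI7 cells and 100.3% in vector cells. NME1 had 118% in QKI7 cells and 123% in vector cells. The low footprints of NME2 therefore stand beside overlapping entries with high ones.

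Footprints and inputs of the QKI7 cells were then tested against each other, since these libraries did not choose the members. The test was limma across 5806 entries (those averaging 1 TPM or more over the 8 libraries), on log2(TPM + 1), with p-values adjusted by Benjamini-Hochberg over all of them. All 98 members were lower in QKI7 footprints than in QKI7 inputs at an adjusted p under 0.05, the highest being 1.01e-07. As deposited, 90.8% of all entries tested were also lower, and 527 of the 541 other abundant entries (97.4%), so the count alone sets nothing apart. The sizes differ more: the median log2 difference was -3.96 for the members, -3.35 for the other abundant entries and -1.97 for all entries tested. Relative to all entries, the members' median was -1.99. The pseudocount of 1 TPM holds these values back, since most footprints of the members are under 0.5 TPM. Part of the gap to all entries follows from the input minimum of the rule. Entries tested reach down to a mean of 1 TPM, and low entries can fall little on log2(TPM + 1). The other abundant entries share that minimum.

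Among named members, the test gave a log2 difference of -6.57 for ANKRD20A8P (adjusted p = 3.03e-10), -6.04 for SRRM2 (2.62e-10) and -5.72 for DNAJB1 (2.62e-10), in limma's fit. NME2 had the smallest, -2.52 (adjusted p = 1.01e-07), and also the lowest mean QKI7 input of the members, 5.44 TPM. These sizes do not rank the ratios, because with footprints this low the pseudocount ties them to the input level. CBS, listed at 0 in both QKI7 footprint libraries, had -3.83 at a mean QKI7 input of 13.3 TPM. TNRC18, at a QKI7 ratio of 1.81%, had -4.70 at 47.4 TPM. On rescaled values, 96 of 98 members were lower, where 58.6% of the 16678 entries tested were. The exceptions were NME2 (log2 difference -2.65 ± 1.27 SE, adjusted p = 0.104) and POTEG (-2.61 ± 1.18 SE, adjusted p = 0.0893).

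Input levels of the 2 constructs were compared by the same fit. The vector inputs had also entered the rule, as the minimum of 10 TPM and as the denominator of the ratio, so the members were partly chosen on one side of this comparison. The spread in this fit also came from the footprint libraries, and low vector footprints chose the members. In the inputs, 53 members (54.1%) were higher in QKI7 cells, where 39.1% of all entries tested were, and 3 were lower, where 5.48% were. Fitted on the input libraries alone, 30 members were higher, where 773 of 5806 entries were, and 2 lower, where 140 were. The other abundant entries, which share the minimum but lie on the other side of the ratio and so are not a matched set, were higher in 117 of 541 cases (21.6%) and lower in 68 (12.6%). The median log2 difference was 0.22 for the members, 0.046 for the other abundant entries and 0.15 for all entries tested. In bulk RNA, a level per cell and a share of cells that carry an RNA cannot be told apart.

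These counts depend on the settings of the fit. On values rescaled without spike-ins, histones and small RNAs, 0 members were higher and 0 lower at the same threshold, where 0.048% of all entries were higher and 0.546% lower (1070 of 16678 entries had an unadjusted p under 0.05). The members' median was then 0.04, and 0.03 below that of all entries. That fit kept the pseudocount and filter of 1 TPM on larger values, so the pseudocount weighed less there. What took away the calls was not tested. After quantile normalization within each library type, 46 members were higher, where 1090 of 5806 entries were, and 9 lower, where 907 were. In the fit as deposited, the members' median was 0.17 without the first QKI7 input library, where that of all entries was 0.12. Without the first vector input library, these medians were again 0.17 and 0.12. With a pseudocount of 0.1 TPM, 3 members were higher (BPTF, DNAJB1 and DST), where 294 of 5806 entries tested were. The calls below are those of the fit as deposited.

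**Figure D4:**
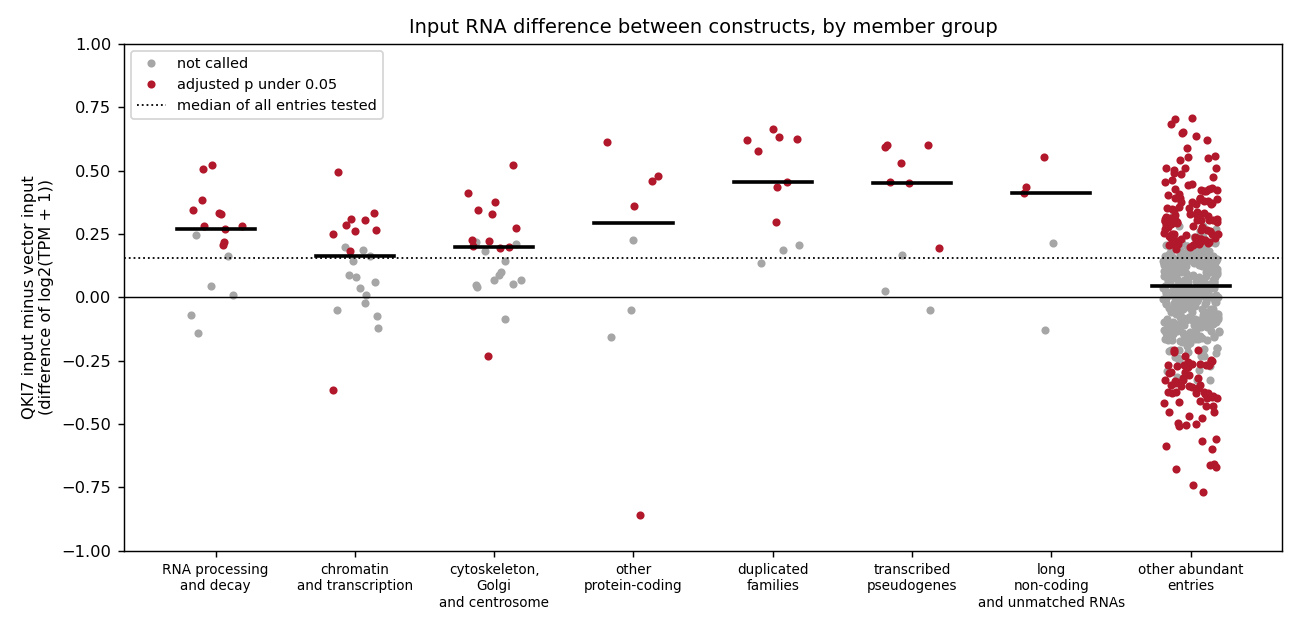
Difference between QKI7 input and vector input on the log2(TPM + 1) scale for each member by group and for the 541 other abundant entries; red points have an adjusted p under 0.05, bars are medians, and the dotted line is the median of all 5806 entries tested, 0.15. Medians of duplicated families and transcribed pseudogenes lie at 0.45, and that of the other abundant entries at 0.046.

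By group, and beside the 39.1% of all entries tested, higher calls in QKI7 inputs covered 8 of 11 members of duplicated families, 7 of 10 transcribed pseudogenes, 11 of 17 RNA processing genes and 3 of 5 long non-coding or unmatched RNAs. They covered 4 of 8 other protein-coding genes, 11 of 24 cytoskeleton, Golgi and centrosome genes (45.8%) and 9 of 23 chromatin genes (39.1%), which are near that share. The median log2 difference was 0.45 for both duplicated families and pseudogenes, and 0.16 for chromatin genes, about that of all entries. On rescaled values the medians of duplicated families and pseudogenes were 0.27 and 0.29, while that of chromatin genes turned to -0.02.

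The largest rises were in POTEF (log2 difference 0.66 ± 0.09 SE, limma adjusted p = 0.00179), POTEM (0.63 ± 0.08, 0.00177), ANKRD36C (0.62 ± 0.07, 0.00124) and ANKRD36 (0.62 ± 0.06, 0.00117). POTEF inputs were 50.87 and 45.9 TPM in QKI7 cells and 28.63 and 31.68 TPM in vector cells. Those of ANKRD36 were 21.2 and 19.63 TPM in QKI7 cells and 12.99 and 12.81 TPM in vector cells, and those of ANKRD36C 17.33 and 15.73 TPM in QKI7 cells and 10 and 10.75 TPM in vector cells. All 4 belong to duplicated families, so which copy the reads came from was not tested.

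DNAJB1 rose by 0.61 ± 0.07 (SE, limma adjusted p = 0.00133) in the fit as deposited. Next came LOC650226 and ANKRD20A8P at 0.6 each, GUSBP2 at 0.59, NPIPB3 at 0.58 and LINC00342 at 0.55, with adjusted p between 0.00153 and 0.00499. LOC650226 inputs were 19.59 and 15.96 TPM in QKI7 cells and 11.1 and 11.55 TPM in vector cells. GUSBP2 inputs were 33.32 and 29.21 TPM in QKI7 cells and 20.23 and 20.45 TPM in vector cells, and those of NPIPB3 32.31 and 26.98 TPM in QKI7 cells and 17.89 and 21.1 TPM in vector cells. These 10 members passed the threshold in all 8 fits that left out a library, and none passed on rescaled values.

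In the RNA processing group, the NMD kinase SMG1 rose by 0.52 ± 0.07 and its pseudogene SMG1P1 by 0.53 ± 0.08 (SE, limma adjusted p = 0.00213 and 0.00297). NKTR, a cyclophilin-related protein, rose by 0.51 ± 0.08, SRRM2 by 0.38 ± 0.08, UPF3A by 0.35 ± 0.07 and SMG5 by 0.33 ± 0.07, with adjusted p between 0.00331 and 0.00784. DST rose by 0.52 ± 0.08 and BPTF, a subunit of the NURF remodeller, by 0.49 ± 0.07 (adjusted p = 0.00267 and 0.00252). TUG1 rose by 0.41 ± 0.07 (adjusted p = 0.00303) and MKI67 by 0.46 ± 0.09 (adjusted p = 0.00502).

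Lower in QKI7 inputs were NME2 (log2 difference -0.86 ± 0.13 SE, limma adjusted p = 0.00274), HELZ2 (-0.37 ± 0.05, 0.00244) and AP3D1 (-0.23 ± 0.07, 0.0245). HELZ2 inputs were 10.33 and 10.28 TPM in QKI7 cells and 13.56 and 13.59 TPM in vector cells, with close replicates. AP3D1 inputs were 10.63 and 10.28 TPM in QKI7 cells and 11.76 and 13.15 TPM in vector cells, and its call was lost in 3 of the 8 fits without a library. The direction of all 3 was kept on rescaled values, at -1.16, -0.59 and -0.44, without passing the threshold there.

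The 42 members that passed in neither direction include SLTM (0.01 ± 0.07 SE), PGM5P2 (0.02 ± 0.07), ANKRD11 (-0.05 ± 0.08) and SMARCA4, the BRG1 ATPase (0.01 ± 0.07). A difference under the threshold does not show that they were equal. With 2 libraries per group, an exact permutation test could not pass 0.333 for any single RNA, so these calls rest on the spread that limma shares across entries.

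Footprint levels of the constructs are given as values, with no test, because the members were chosen for low vector footprints and a return toward higher values in other libraries follows in part from that choice. Both QKI7 footprint libraries were above both vector ones for 63 members, where 30.4% of all entries tested were. The order was the reverse for 1, and 34 overlapped, with no share over all entries given for these outcomes. The members' footprints summed to 19.7 TPM in QKI7 cells and 11.5 TPM in vector cells. Means under 0.1 TPM were listed for 24 members in QKI7 footprints and for 49 in vector footprints.

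The same limit holds for the ratio of footprint to input, since its vector value chose the members and parted them from the other abundant entries. The ratio was higher in QKI7 cells for 80 of 98 members (81.6%), against 257 of 541 other abundant entries (47.5%), and the median fold between constructs was 1.41 for the members and 0.986 for the others. The members with the highest QKI7 ratios were HELZ2, LOC100288162, MAP7D1, POTEG, NME2 and ZNF598, all above 2%. ZNF598 footprints were 0.32 and 0.3 TPM in QKI7 cells and 0.17 and 0.15 TPM in vector cells, over inputs of 15.68 and 14.71 TPM in QKI7 cells and 15.67 and 16.36 TPM in vector cells. Its inputs were level while its footprints did not overlap. At the other end, SMG1P1, CDR1, LOC642423, LOC650226, ANKRD20A8P, LINC00342 and CBS were below 0.2% in QKI7 cells, and only SMG1P1 and CBS were below 0.1% in both constructs.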

How the data were processed

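The authors deposited 1 table of TPM for 26902 entries in 8 libraries, rounded to 2 decimals. Per the submitters' processing notes, STAR, RSEM 1.2.31 and GRCh38 were used, with settings not given in the sources used here; reads were single-end, 51 nt, per the labels' protocols. TPM keeps no read depth, so no counting interval is given and 0 is described as listed at 0.

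Contrasts were fitted with limma 3.58.1 under R 4.3.3, using lmFit and trended eBayes, to log2(TPM + 1) of 4 group means (4 residual degrees of freedom), over 5806 entries averaging 1 TPM or more. Two-sided p-values were adjusted across these entries (Benjamini-Hochberg) and read at 0.05. Log2 differences on this scale understate changes of low values. For rescaled values, spike-ins, histone genes and small RNAs were removed (2598 entries) and the rest brought to equal sums. On simulated data with the spread of these libraries and 200 of 5806 entries changed, the input contrast recovered 84% of log2 changes of 0.5 and 98% of changes of 1, with 3.70% of calls false. Unchanged entries were simulated as equal between constructs. The real input contrast had a median of 0.15 over all entries tested, so these rates do not cover such a shift.

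Genes, classes, coordinates and promoters come from RefSeq tables of GRCh38.p14, matched by symbol; near copies of promoters were found with BLAST 2.17.0. The members and lists were chosen with earlier results of these data known. Named members are the 20 with the highest vector input, the 5 highest of each class, those with the highest QKI7 ratio, the 10 largest input changes per direction and the 5 on each side of the threshold. CBS, SMG1, SMG5, UPF3A, NKTR, BPTF, BDP1, BAGE5, SMARCA4 and copies of members were added after their values were seen. Alternatives were other pseudocounts, filters and scalings, no variance trend, a replicate block, subsets of the libraries, leaving out each library, and other rule thresholds.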

Additional observations from a re-analysis of the deposited data

How the results depend on the processing

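All 98 members were lower in QKI7 footprints than in QKI7 inputs in 16 of the 17 alternative fits, and 96 on rescaled values. Their median relative to all entries was -2.19 and -2.23 with pseudocounts of 0.1 and 0.01, -2.96 with a filter at 0.1 TPM, -3.59 with no filter, -2.51 on rescaled values, -2.04 after quantile normalization and -2.01 to -1.98 with a library left out. The looser filters add low entries, which moved the median of all entries toward 0 (-0.37 with no filter, against -1.97 with the filter at 1 TPM). Members higher and lower in QKI7 inputs numbered 3 and 0 with pseudocount 0.1, where 294 and 81 of all 5806 entries were. They numbered 0 and 0 with 0.01 (9 and 17 of all 5806 entries) and on rescaled values (8 and 91 of 16678 entries). After quantile normalization they numbered 46 and 9 (1090 and 907 of all 5806 entries). From the input libraries alone they numbered 30 and 2 (773 and 140 of all 5806 entries). With a library left out they ranged from 32 to 57 higher and 2 to 3 lower. The cause of these shifts was not tested. Of 56 called members, 34 were called in all 8 fits without a library.

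With the replicate number as a block, 45 members were higher and 3 lower, where 2024 and 281 of all 5806 entries were. Of the 56 calls, 48 held. Deviations of same-numbered libraries correlated at 0.125 (QKI7 footprints and inputs), 0.008 (vector footprints and inputs), -0.088 (inputs) and 0.060 (footprints), so the numbers do not establish a pairing.

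In QKI7 libraries, 4 members were below 1% on rescaled values, 92 were below 0.02 and 18 below 0.005 of input, and 55 to 61 were below 0.01 in single pairs. Shares of all entries at these cuts in QKI7 libraries are not given. The rule gave 250 entries at a minimum of 5 TPM, 26 at 20 TPM, 32 at a ratio of 0.005 and 244 at 0.02. It gave 483 on rescaled values, where the minimum is looser. Requiring each vector pair to pass on its own gave 71 entries, all of them members. Single vector pairs gave 86 and 117. Footprints near 0.1 TPM stand on 2 decimals and unknown depth, so ratios of single members have little precision.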
